A study of Macaca fascicularis with 2 samples.

Results

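The genes described are the integrin and cadherin genes of the monkey fetal ovary. They are all genes of the count table named ITGA or ITGB with a number, or CDH with a number only, and they number 42 of 18446 genes. They comprise 12 integrin alpha chains, 7 integrin beta chains and 23 cadherins. Binding proteins with similar names and alpha chains named by a letter, such as ITGAV and ITGAM, are not among them. The cells came from Macaca fascicularis (crab-eating macaque) ovaries, of 1 fetus at embryonic day 84 (E84) and of another at day 116 (E116), and the ovary pair of each fetus was digested and sequenced as 1 droplet library of 3′ ends. No treatment, allele or agent differs between the fetuses, and age is the only difference that the labels give.

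Integrins are receptors of 1 alpha and 1 beta chain that bind a cell to the matrix around it or, in blood cells, to other cells. The alpha chain largely sets the ligand, while the beta chain connects to the actin skeleton through talin and kindlin. Classical cadherins join neighbouring cells by binding a cadherin on the next cell, depend on calcium, and hold the actin skeleton through catenins. In the fetal ovary, germ cells lie in nests wrapped by pregranulosa cells behind a laminin-rich basement membrane. These nests later break into follicles, so that contacts between germ cells, pregranulosa cells and matrix are rearranged.

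The table holds 148824177 unique molecular identifiers (UMIs, counted transcripts) in 20967 cells, and 16292 cells with 200 to 3000 detected genes were retained, with a median of 2670 UMIs. Its barcodes end in 1 or 2, and nothing in the table ties an ending to E84 or E116, so the cells form 1 pooled sample and nothing is reported by stage. The endings serve as unlabelled libraries, with 8716 and 7576 retained cells, and 27 barcode sequences occur with both endings. Cells are not replicates and nothing maps them to the samples, so no test between groups was made. Differences are given as sizes, with the values of each ending for some of the genes only. A level is the sum of UMIs of a gene in a group, scaled to the same library total for every group (CPM), followed in parentheses by its exact 95% Poisson interval, which covers counting error only. Because 3′ ends were counted, gene length does not enter, yet levels are compared here between groups and not between genes.

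Cells were clustered without the 42 genes and named from markers. Somatic cells comprised 5163 granulosa-like, 4027 stroma-like, 758 ovarian surface epithelium-like, 118 pericyte-like, 343 endothelial-like, 227 macrophage-like and 736 erythroid-like cells. The 4495 germ cell-like cells held 81 mitotic-like, 1333 RA-responsive-like (responding to retinoic acid), 991 meiotic-like and 456 oogenesis-like cells, and 1634 without a step. No name was given to 425 further cells, in which mitochondrial UMIs made up a median of 79.9%. In the named groups the median ranged from 1.41% in erythroid-like to 13.1% in granulosa-like cells, with 10.7% in germ cell-like and 6.95% in stroma-like cells. The totals behind the CPM include these UMIs. A limit of 10% mitochondrial UMIs, used as an alternative with cells clustered again, left 1063 granulosa-like, 1639 germ cell-like and 62 oogenesis-like cells. All 81 mitotic-like cells and 948 of the meiotic-like cells had barcodes ending in 1, whereas 447 of the oogenesis-like cells had barcodes ending in 2, so for these steps the step and the library cannot be told apart. Pericyte-like cells were mostly of ending 2 too, with 109 cells against 9. Erythroid-like cells, which should carry little integrin or cadherin RNA, had 28.2 CPM of ITGB1, 17.4 of ITGA6 and 10.6 of CDH2. Germ cell-like cells were shallower (median 1344 against 4059.5 UMIs) and had more of the markers of other cells. They had a summed 164 against 46.1 CPM of the granulosa markers and 396 against 195 of the stroma markers. The part of free RNA in germ cell-like cells was not tested, and the erythroid-like levels set no upper limit on it.

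Most of these genes were highest in somatic groups. Of the 42 genes, 41 had a UMI in retained cells, and 21 reached 20 CPM from at least 10 UMIs in a named group and are described one by one, 13 integrins and 8 cadherins. The highest level lay in a somatic group for 19 of these 21 and in a germ cell step for 2, whereas 48.6% of the 9900 genes past the same limit were highest in a somatic group. Endothelial-like cells had the highest level of 5 (23.8%) and stroma-like cells of 2 (9.52%). Granulosa-like, ovarian surface epithelium-like, pericyte-like and macrophage-like cells had that of 3 each (14.3%). Over all genes past the limit the shares were 9.38% for endothelial-like, 6.19% for stroma-like and 7.82% for granulosa-like cells. They were 5.96% for ovarian surface epithelium-like, 7.72% for pericyte-like and 11.2% for macrophage-like cells. Here 1 gene of the 21 makes up 4.76%. The counts of 2 or 3 thus lay few genes from the shares over all genes, nearest in macrophage-like and stroma-like cells. The counting intervals of the highest and the next group were apart for 14 of the 21. The same group was highest in the barcodes ending in 1 and in those ending in 2 for 14 of them. This count set no minimum of cells, although ending 1 has 9 pericyte-like and 9 oogenesis-like cells and ending 2 has 0 mitotic-like cells. For ITGA1 in pericyte-like and CDH17 in oogenesis-like cells the value of ending 1 thus rests on 9 cells each. Meiotic-like cells were the highest group for 21.6% of all genes past the limit, against 0 of the 21.

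**Figure D1:**
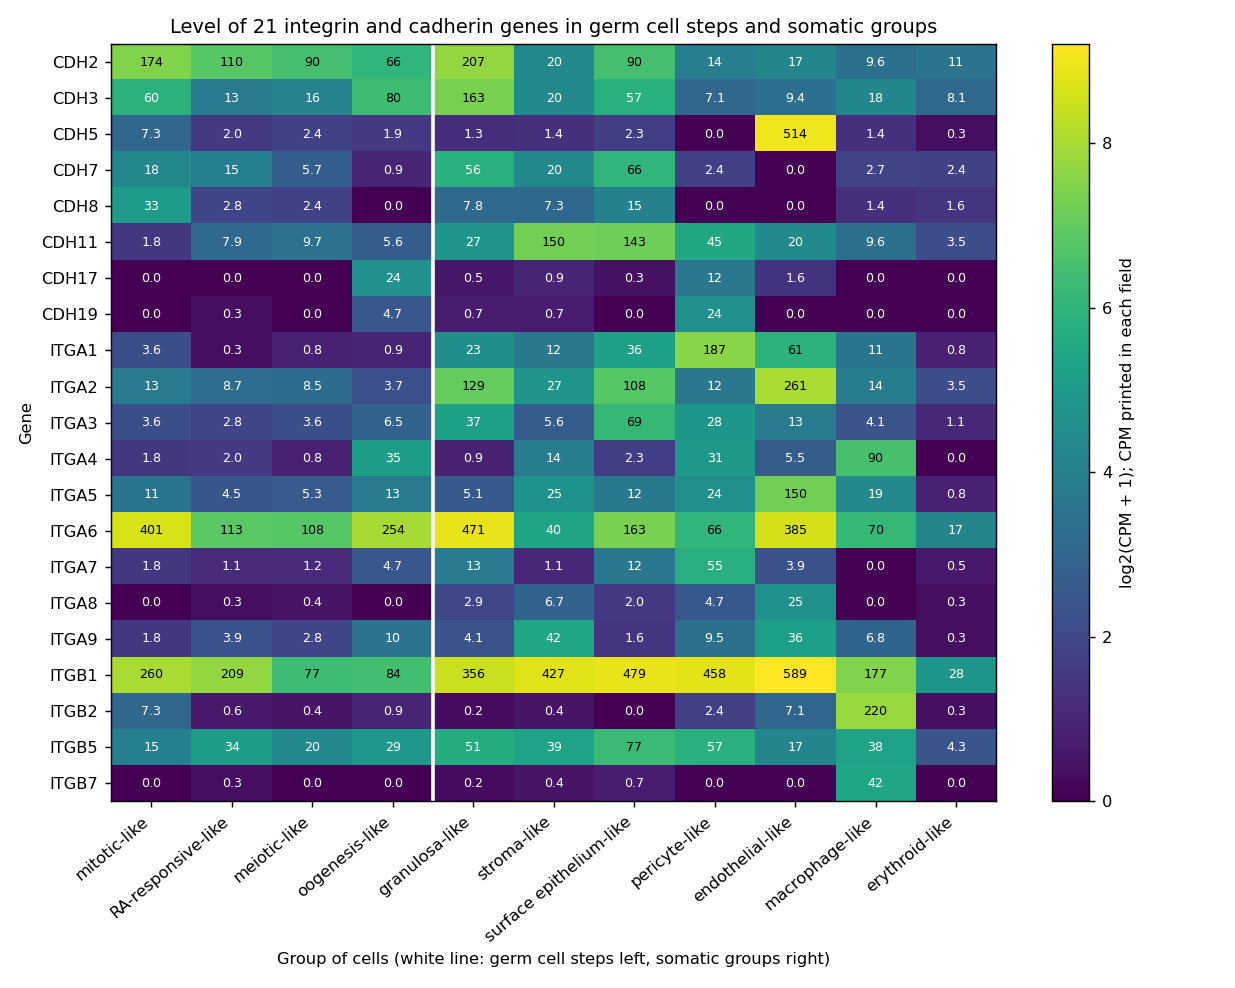
Level of the 21 described genes (rows) in 4 germ cell steps and 7 somatic groups (columns), coloured by log2(CPM + 1) with the CPM printed in each field. ITGB1 is at 77.4 CPM or more in every group but the erythroid-like cells, CDH5 reaches 514 CPM in endothelial-like cells, and ITGB2 and ITGB7 stand out in macrophage-like cells.

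ITGB1 encodes the beta chain that pairs with most of the alpha chains measured here. It was detected in every group, with 589 CPM (548–633) in endothelial-like, 479 (455–504) in ovarian surface epithelium-like, 458 (395–527) in pericyte-like, 427 (417–438) in stroma-like and 356 (348–365) in granulosa-like cells. The pericyte-like interval overlapped those of the surface epithelium-like and stroma-like cells. Macrophage-like cells had 177 CPM (147–210), and the germ cell-like cells together had 148 (141–156). By library, the endothelial-like level was 772 CPM in ending 1 and 509.5 in ending 2, the highest of any named group with at least 20 cells in each. A UMI of ITGB1 was found in 57.5% of granulosa-like and 21.7% of germ cell-like cells, and in 29.0% and 12.2% after each cell was thinned to 1000 UMIs, where erythroid-like cells had 3.42%.

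ITGB5, whose protein pairs with the alpha V chain to bind vitronectin, was at 76.8 CPM (67.3–87.3) in ovarian surface epithelium-like, 56.9 (36.5–84.7) in pericyte-like and 50.9 (47.7–54.3) in granulosa-like cells, and lowest outside the erythroid-like cells in mitotic-like cells (14.5 CPM, from 8 UMIs). The first intervals overlap, so the top of this order is not resolved. ITGB2, the beta chain of leukocyte integrins, was at 220 CPM (188–257) in macrophage-like cells and at 7.26 CPM or less in every other named group. ITGB7, which pairs with ITGA4 or ITGAE on lymphocytes, was at 42.4 CPM (28.8–60.2) there, with at most 6 UMIs in any other named group. It had 0 UMIs in pericyte-like and mitotic-like cells, where 3 counts would be 7.11 and 5.45 CPM. ITGB2 and ITGB7 were highest in macrophage-like cells in each library.

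Macrophage-like cells also carried lymphocyte markers, 9 of 9 measured ones being above 0, with a summed level of 1379 CPM. At a clustering resolution of 1.0, chosen for this after the data were seen, 131 of the 227 cells fell into a macrophage-like cluster of 133 cells and 96 into a lymphocyte-like cluster. ITGB2 was at 239 CPM (193–292) in the first and 200.1 (155–254) in the second, with overlapping intervals. ITGB7 was at 20.1 CPM (8.69–39.7) in macrophage-like and 68.7 (43.6–103) in lymphocyte-like cells, and ITGA4 at 65.5 (42.8–95.9) and 119 (85.4–163). Against this, ITGA5 had 14 UMIs (35.2 CPM) in the macrophage-like and 0 of 334772 UMIs in the lymphocyte-like cells. ITGAM, the alpha chain of the complement receptor of myeloid cells and not one of the 42 genes, had 47 UMIs in the former and 1 in the latter.

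Among the laminin-binding alpha chains, ITGA6 was highest in granulosa-like cells, with 471 CPM (462–482). Mitotic-like cells had 401 CPM (350–458), endothelial-like cells 385 (352–421), and stroma-like cells 40.2 (37.1–43.6). By library, granulosa-like cells had 432 CPM in ending 1 and 511 in ending 2, while endothelial-like cells had 493 and 339, so the order of these 2 groups turned between libraries. ITGA6 can pair with ITGB1 or ITGB4, and ITGB4 had 13 UMIs in all retained cells against 17074 of ITGB1. ITGA3, an epithelial laminin receptor chain, was highest in ovarian surface epithelium-like cells at 69.3 CPM (60.3–79.3), 1.89 times the granulosa-like level of 36.6 (33.9–39.5), and at 5.60 in stroma-like cells. ITGA7, known from muscle, was at 54.5 CPM (34.6–81.8, 23 UMIs) in pericyte-like cells, whose naming markers included the smooth muscle genes ACTA2 and MYH11. Granulosa-like cells followed with 13.4 CPM (11.8–15.2), and stroma-like cells had 1.07.

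Both abundant collagen-binding alpha chains were highest in a group of the vessel wall. ITGA1 was at 187 CPM (148–233) in pericyte-like cells and at 61.1 (48.3–76.3) in endothelial-like cells, 3.07 times lower. Ovarian surface epithelium-like cells had 36.3 CPM, and the germ cell-like cells had 9 UMIs in all (0.929 CPM). ITGA2 was at 261 CPM (234–290) in endothelial-like cells, with 160 in ending 1 and 305 in ending 2, and at 129 (124–134) in granulosa-like and 108 (96.9–121) in ovarian surface epithelium-like cells. Stroma-like cells, the group with the most COL1A1, had only 26.5 CPM of ITGA2 and 11.9 of ITGA1. The other collagen-binding chains, ITGA10 and ITGA11, stayed at or under 11.9 CPM in every group.

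ITGA5 and ITGA8, chains that bind their ligands at a short acidic motif, were highest in endothelial-like cells. ITGA5, the fibronectin receptor chain, was at 150 CPM (129–172) there, with 149.7 and 149.6 in endings 1 and 2, and 5.93 times lower in stroma-like cells (25.2, 22.8–27.9). ITGA8, a receptor chain for nephronectin, was at 25.1 CPM (17.1–35.4) in endothelial-like and 6.66 (5.42–8.10) in stroma-like cells. ITGA4 and ITGA9 form a small subfamily that binds VCAM1 and related ligands. ITGA4 was at 90.3 CPM (69.8–115) in macrophage-like cells, followed by oogenesis-like cells with 34.5 (24.3–47.6) and pericyte-like cells with 30.8 (16.4–52.7). ITGA9 was at 41.7 CPM (38.5–45.1) in stroma-like and 36.0 (26.4–48.1) in endothelial-like cells, which overlap, and at 10.3 or less elsewhere. Within the stroma-like cells it ranged from 28.6 CPM in the cluster led by GBP1 to 87.0 (68.1–110) in the cluster led by SPON2, both nearly all of ending 2.

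**Figure D2:**
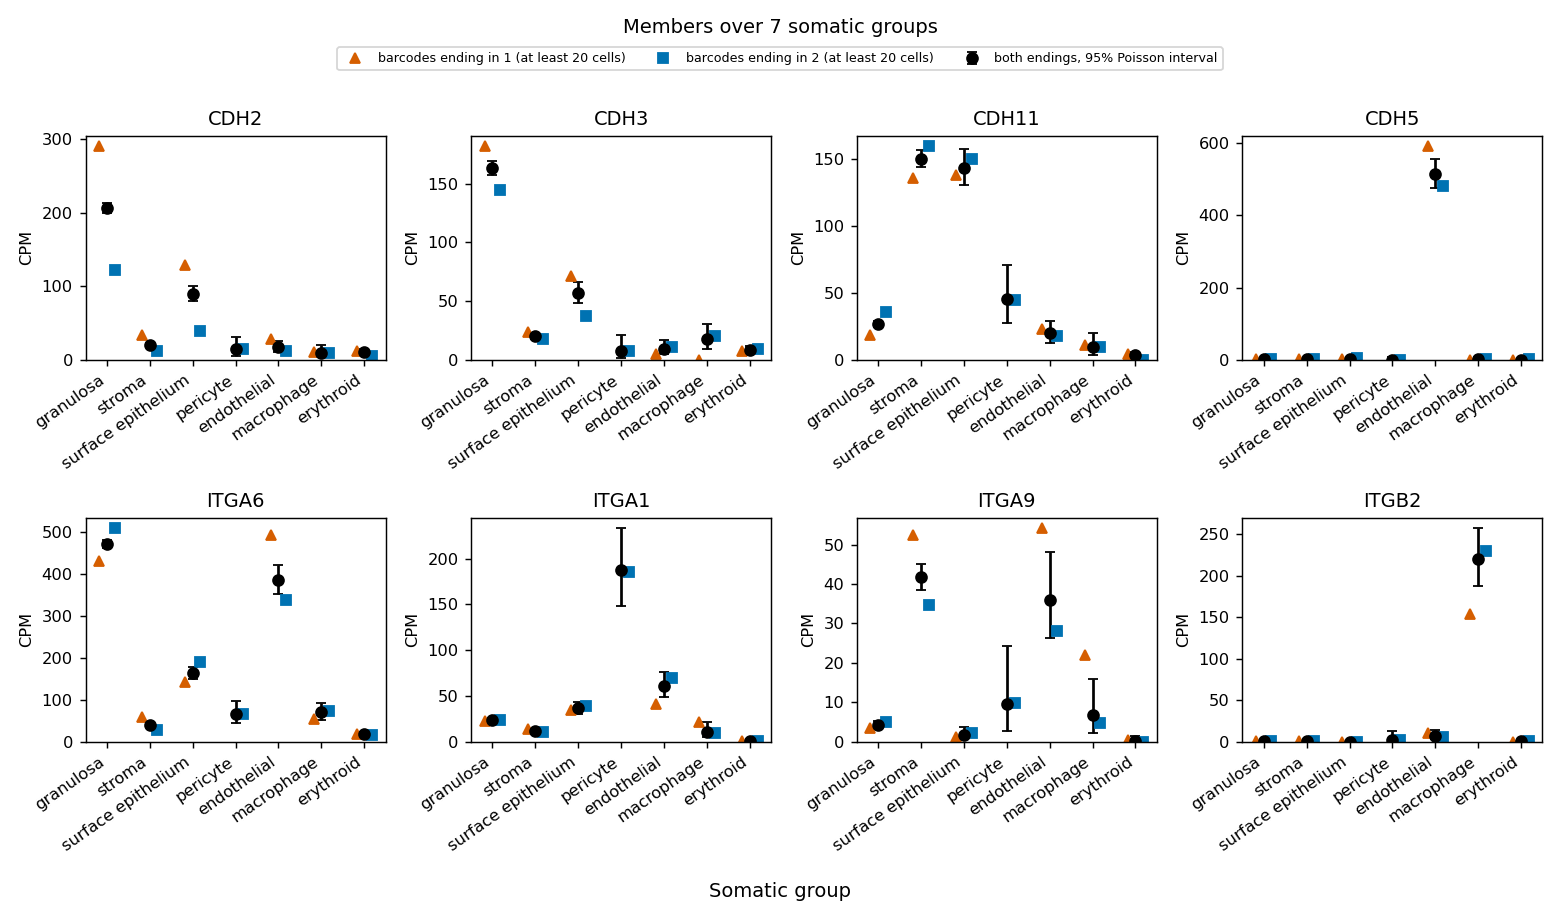
CPM (vertical axis, from 0) of 4 cadherins and 4 integrins in 7 somatic groups. Black points are both libraries with the 95% Poisson interval, triangles barcodes ending in 1 and squares barcodes ending in 2, drawn for at least 20 cells. CDH2 and CDH3 peak in granulosa-like cells, CDH11 in stroma-like and surface epithelium-like cells at 150 and 143 CPM, and CDH5 in endothelial-like cells.

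The abundant cadherins divided the somatic groups. CDH2 (N-cadherin) was at 207 CPM (200.1–213) in granulosa-like cells, 89.6 (79.3–101) in ovarian surface epithelium-like and 19.9 (17.7–22.2) in stroma-like cells. CDH3 (P-cadherin) had the same order, with 163 CPM (158–169), 56.9 (48.7–66.0) and 20.1 (17.8–22.4). CDH11, the cadherin of mesenchyme, had another one, with 150 CPM (144–156) in stroma-like and 143 (130–157) in ovarian surface epithelium-like cells, which overlap, and 26.8 (24.4–29.2) in granulosa-like cells. Granulosa markers were counted in the surface epithelium-like group too, 9 of 10 above 0, with a summed level of 585 CPM against 1164 in granulosa-like cells, and their part in its CDH2 and CDH3 levels was not tested. Surface epithelium-like cells had the highest level of CDH1 (E-cadherin), which was low throughout, at 15.4 CPM (11.3–20.4, 47 UMIs) against 2.89 in granulosa-like cells.

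CDH5 (VE-cadherin), the adhesion protein of the endothelial junction, was at 514 CPM (475–555) in endothelial-like cells, with 591 in ending 1 and 480 in ending 2. It was at 7.26 CPM or less in every other named group, and 73.8% of endothelial-like cells had a UMI of it against 0.465% of granulosa-like cells, at median depths of 3455 and 3215 UMIs. CDH5 was not among the markers that named these cells. CDH7, a classical cadherin known from neural crest and brain, was at 65.7 CPM (56.9–75.4) in ovarian surface epithelium-like and 55.9 (52.5–59.4) in granulosa-like cells, and had 0 UMIs in endothelial-like cells, where 3 counts would be 2.35 CPM. CDH19, known from Schwann cells, was at 23.7 CPM (11.4–43.6) in pericyte-like cells from 10 UMIs, all in ending 2. All 5 measured markers of neural crest glia were above 0 in the same cells, with a summed level of 180.2 CPM, and SOX10 was at 19.0. Their part in the CDH19 level was not tested.

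ITGA6, CDH3, ITGB1 and CDH2 were the members with the most UMIs in germ cell-like cells apart from ITGB5, and their levels differed between steps. ITGA6 was at 401 CPM (350–458) in mitotic-like cells, 113 (102–125) in RA-responsive-like, 108 (95.3–122) in meiotic-like and 254 (225–286) in oogenesis-like cells. The middle steps were thus the lowest here, but the rise to oogenesis-like cells depended on how the cells were clustered and summed, and fell under 2-fold in 7 of 14 alternatives and turned in another, with 30 principal components, to a log2 ratio of −0.34. CDH3 was also lowest in the middle steps, with 59.9 CPM (41.2–84.2), 13.2 (9.73–17.6), 15.8 (11.2–21.6) and 80.2 (64.2–99.1). ITGB1 was at 260 CPM (219–306) in mitotic-like and 209 (194–224) in RA-responsive-like cells, whose intervals overlap, and at 77.4 (66.8–89.2) in meiotic-like and 84.0 (67.5–103) in oogenesis-like cells. CDH2 was lower at each step, with 174 CPM (141–213), 110 (99.5–122), 90.0 (78.6–103) and 66.2 (51.7–83.6), and the intervals of neighbours were apart only between the first 2.

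**Figure D3:**
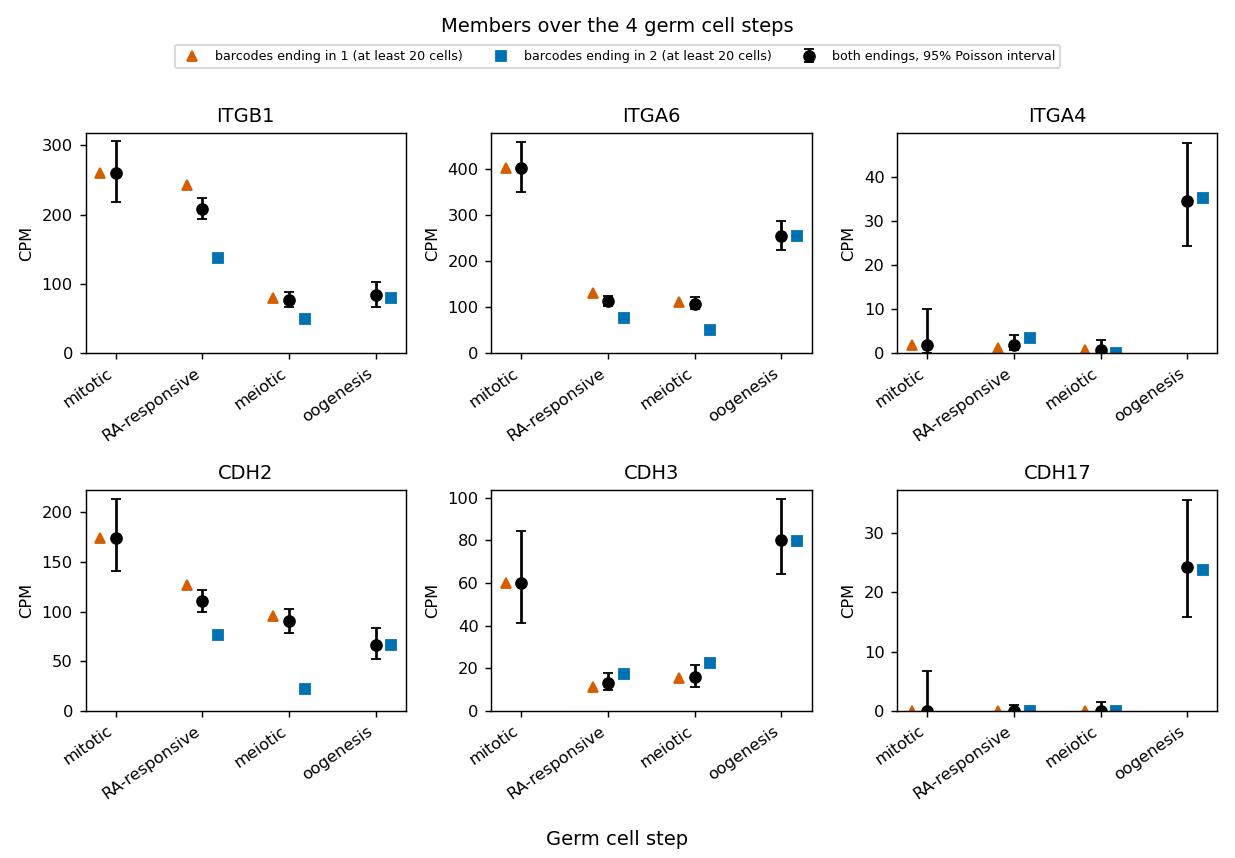
CPM (vertical axis, from 0) of 3 integrins and 3 cadherins over 4 germ cell steps. Black points are both libraries with the 95% Poisson interval, triangles barcodes ending in 1 and squares barcodes ending in 2, drawn for at least 20 cells. ITGA6 and CDH3 are low in the RA-responsive and meiotic steps, while ITGA4 and CDH17 stand above their intervals in the earlier steps only at oogenesis, a step whose cells are nearly all of ending 2.

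Other members were counted in few steps. CDH8, a type II cadherin of the nervous system, was at 32.7 CPM (19.4–51.7, 18 UMIs) in mitotic-like cells, 2.82 and 2.43 in the following steps, and had 0 UMIs in oogenesis-like cells. Ovarian surface epithelium-like cells had 15.4 CPM (11.3–20.4) of CDH8, which overlaps the mitotic-like interval, so its highest group is not resolved. CDH17 (LI-cadherin), known from gut and liver, was at 24.3 CPM (15.8–35.5, 26 UMIs) in oogenesis-like cells, with 0 UMIs in each of the other 3 steps, where 3 counts would be 5.45, 0.845 and 1.22 CPM. Pericyte-like cells had 11.9 CPM (3.85–27.7) of CDH17, which overlaps the oogenesis-like interval. CDH15 (M-cadherin), known from muscle, had 19 UMIs in oogenesis-like cells (17.7 CPM) and 0 in meiotic-like cells. ITGA4 had 37 UMIs in oogenesis-like cells and 2 in meiotic-like cells, 34.5 against 0.811 CPM. Since ITGA4 is also a leukocyte gene, macrophage markers were counted in the oogenesis-like cells. CSF1R was at 326 CPM there and the other 9 between 0 and 5.60, with C1QA, CD68, AIF1 and MRC1 at 0. ITGB2 was at 0.933 CPM. The part of leukocytes in the ITGA4 level of oogenesis-like cells was not tested.

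The limit of 3000 genes removes cells with many detected genes, germ cells among them, and left 53250481 of the 148824177 UMIs. The removed cells held 63.5% of the ITGB1 and 72.8% of the ITGA6 UMIs. Without the limit 16 of the 21 described members kept their highest group, and the somatic levels are not given again here. The germ cell steps were formed again without it, an alternative whose step values were read after the data were seen. There were then 252, 1712, 1723 and 307 cells, of which 175, 623, 344 and 219 had more than 3000 genes. ITGA6 was at 372 CPM (352–393), 98.1 (93.1–103), 89.5 (83.3–96.1) and 268 (258–278), and CDH3 at 51.6, 6.63, 16.8 and 80.7. Both were lowest in the middle steps, with 10312492 UMIs behind the oogenesis-like cells. CDH17 was then at 26.0 CPM (23.0–29.3, 268 UMIs) in oogenesis-like cells against 1 UMI in each of the preceding 2 steps, and ITGA4 at 41.7 (37.8–45.8) against 2.09 in meiotic-like cells. ITGB1 was at 240 CPM, 212, 58.4 and 64.8.

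A gene was called past 2-fold between groups when the ratio of (CPM + 5) was at least 2, among genes with a mean of at least 5 CPM over both groups. Granulosa-like cells had 10 of 14 compared members past 2-fold higher than germ cell-like cells and 0 lower, where 16.2% of all genes were higher and 16.0% lower. The median log2 ratio was 1.33 for the members and −0.02 for all genes. The higher members were CDH2, CDH3, CDH7, CDH11, ITGA1, ITGA2, ITGA3, ITGA6, ITGA7 and ITGB1. ITGA2 had the largest log2 ratio, 3.28, with 129 against 8.77 CPM. CDH2 lay at the limit (1.02) and was under it in 7 of 14 alternatives, among them ending 2 alone (0.90), and CDH11 (1.18) in 5, among them ending 1 (0.56). CDH7 was under it in ending 2 (0.62). Erythroid-like cells had 3.52 CPM of ITGA2 and 8.13 of CDH3, beside 8.77 and 27.4 in germ cell-like cells, and the part of free RNA in the latter was not tested.

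Stroma-like cells had 4 of 16 members past 2-fold higher than granulosa-like cells and 7 lower, against 6.07% and 7.41% of all genes. The higher ones were CDH11 (log2 ratio 2.29), ITGA9 (2.35), ITGA4 (1.69) and ITGA5 (1.59). The lower ones were ITGA6 (−3.40), CDH2 (−3.09), CDH3 (−2.75), ITGA2 (−2.09), ITGA3 (−1.97), ITGA7 (−1.60) and CDH7 (−1.30). All 3 laminin-binding chains, ITGA3, ITGA6 and ITGA7, were thus lower in stroma-like cells. ITGB1 was near equal, with a log2 ratio of 0.26 and an interval of 0.21 to 0.31 for the plain ratio. CDH7 turned in ending 2 alone, to a log2 ratio of 0.73.

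Ovarian surface epithelium-like cells had 2 of 16 members past 2-fold higher than granulosa-like cells, CDH11 (log2 ratio 2.22) and CDH1 (1.37), and 3 lower, ITGA6 (−1.51), CDH3 (−1.44) and CDH2 (−1.16), against 4.33% and 3.3% of all genes. With a limit of 10% mitochondrial UMIs CDH1 (0.89), CDH3 (−0.83) and CDH2 (−0.59) were under 2-fold. Endothelial-like cells had 6 of 17 members past 2-fold higher than stroma-like cells and 2 lower, against 9.76% and 7.59%. CDH5 was the largest (log2 ratio 6.34), followed by ITGA6 (3.11), ITGA2 (3.08), ITGA5 (2.35), ITGA1 (1.97) and ITGA8 (1.37), and CDH11 (−2.66) and CDH7 (−2.31) were lower. ITGA8 was under 2-fold without the upper gene limit (0.90).

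**Figure D4:**
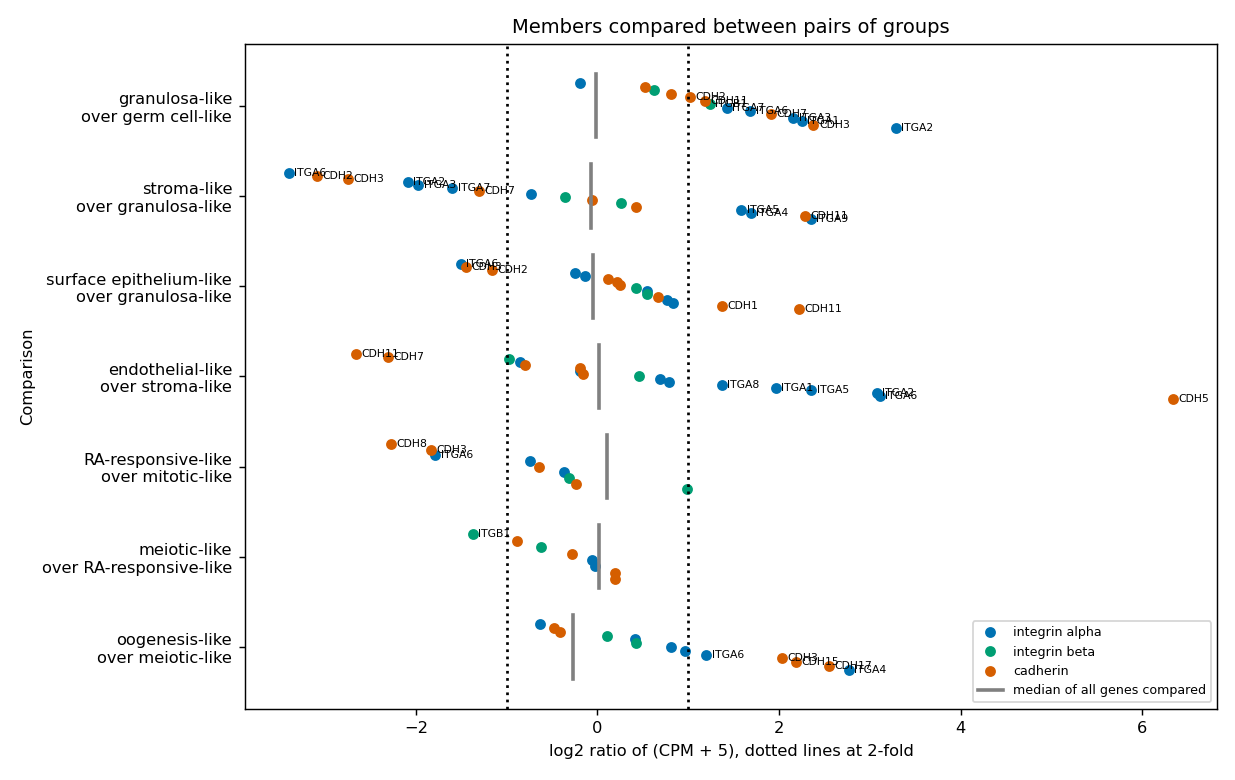
Log2 ratio of (CPM + 5) of each compared member (points, coloured by family) in 7 comparisons of groups, with the median of all genes compared as a grey bar and dotted lines at 2-fold; genes past 2-fold are named. In the comparison of granulosa-like over germ cell-like cells 10 of 14 members lie right of the upper line and 0 left of the lower one.

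Between neighbouring germ cell steps 8 to 13 members could be compared. RA-responsive-like cells had 0 of 9 higher and 3 lower than mitotic-like cells, CDH8 (log2 ratio −2.27), CDH3 (−1.83) and ITGA6 (−1.78), against 13.9% of all genes higher and 9.48% lower. Meiotic-like cells had 0 of 8 higher and 1 lower than RA-responsive-like cells, ITGB1 (−1.37), against 10.1% and 7.89%. In ending 1 alone that count was 2, and in ending 2, with 43 meiotic-like cells, it was 4. Oogenesis-like cells had 5 of 13 higher than meiotic-like cells and 0 lower, where 12.8% of all genes were higher and 24.3% lower. These were ITGA4 (2.77), CDH17 (2.55), CDH15 (2.18), CDH3 (2.03) and ITGA6 (1.20), and the median log2 ratio was 0.81 against −0.27 for all genes. In ending 2 alone the count was 8, and in ending 1, which has 9 oogenesis-like cells, ITGA4 was at a log2 ratio of −0.23, CDH15 at 0 and ITGA6 at 0.85. With 30 principal components, which gave another set of 147 oogenesis-like cells, CDH15 alone of the 5 stayed past 2-fold (2.14), with ITGA4 at 0.99, CDH3 at 0.45, CDH17 at 0 and ITGA6 at −0.34. CDH15 was under it without the upper gene limit (0.82).

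Ligands, anchors and relatives of the members were read from lists of such genes. Of 25 measured integrin ligands, 17 could be compared between granulosa-like and germ cell-like cells. In the former 14 were past 2-fold higher and 0 lower, against 16.2% and 16.0% of all genes. Among the 14 higher ligands, the laminin chain LAMB1 was at 308 CPM against 23.5. Between endothelial-like and stroma-like cells 4 of 19 ligands were higher and 5 lower, against 9.76% and 7.59% of all genes. ICAM2, a ligand of leukocyte integrins, was at 133 CPM against 0.533, while the collagen chain COL1A1 was at 237 against 11029 and COL1A2 at 50.9 against 1891.

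Of 19 genes of the integrin adhesion complex, 15 could be compared between granulosa-like and germ cell-like cells. Granulosa-like cells had 4 past 2-fold higher and 1 lower, against 16.2% and 16.0% of all genes. Endothelial-like cells had 4 of 16 higher than stroma-like cells and 0 lower, against 9.76% and 7.59% of all genes. LIMS2 was at 83.0 CPM against 2.66 in the latter comparison, PARVB at 63.5 against 1.27, and the adaptor PXN (paxillin) at 65.8 against 11.5. In germ cells, the kindlin gene FERMT1 was at 69.0 CPM in mitotic-like and 6.20 in RA-responsive-like cells. In the latter 5 of 13 genes of the complex were lower and 1 higher, against 9.48% and 13.9% of all genes. Of the 5 catenins compared, JUP (plakoglobin) was at 117 CPM in granulosa-like and 15.5 in stroma-like cells, CTNND1 (p120) at 107 in granulosa-like and 34.8 in germ cell-like cells, and CTNNAL1 at 147 in endothelial-like and 43.4 in stroma-like cells.

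Of 31 other genes of the cadherin superfamily, 14 could be compared between granulosa-like and germ cell-like cells. Granulosa-like cells had 10 past 2-fold higher and 1 lower, against 16.2% and 16.0% of all genes. PCDH17, a protocadherin, was at 300.4 CPM against 29.6. The gene that was lower was DSG2 (desmoglein), a cadherin of desmosomes, at 33.0 CPM in granulosa-like and 93.4 in germ cell-like cells. DSG2 was at 227 CPM in mitotic-like, 84.0 in RA-responsive-like, 37.7 in meiotic-like and 240 in oogenesis-like cells, with low middle steps like those of ITGA6 and CDH3. In endothelial-like cells PCDH12 was at 129 CPM against 0.3997 in stroma-like cells, and PCDH18 at 20.4 against 108. Of the alpha chains named by a letter, ITGAV alone could be compared, and it was past 2-fold higher in granulosa-like than in germ cell-like cells (log2 ratio 1.08).

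The libraries differed within groups in a few members. CDH7 was at 104 CPM in granulosa-like cells of ending 1 and 7.21 in those of ending 2, at 97.1 and 24.8 in ovarian surface epithelium-like cells, and at 19.6 and 4.34 in RA-responsive-like cells. ITGB5 went the other way, with 18.3 and 83.5 CPM in granulosa-like, 40.4 and 124 in ovarian surface epithelium-like and 18.8 and 65.0 in RA-responsive-like cells. CDH2 was at 291 and 122 CPM in granulosa-like, 129 and 38.4 in ovarian surface epithelium-like and 33.3 and 11.3 in stroma-like cells. ITGA3 was higher in ending 2, with 21.4 and 51.9 CPM in granulosa-like and 44.5 and 102 in ovarian surface epithelium-like cells. In granulosa-like cells 2 of 16 members were past 2-fold higher in ending 2 and 2 lower, against 3.41% and 5.26% of all genes. The same counts were 2 and 2 of 16 in ovarian surface epithelium-like (2.61% and 4.21% of all genes), 0 and 2 of 16 in stroma-like (2.05% and 2.95%), 0 and 1 of 18 in endothelial-like (6.51% and 6.05%) and 1 and 1 of 8 in RA-responsive-like cells (2.92% and 3.55%). Each ending was taken as 1 library, which no label ties to a fetus, so animal, age and library cannot be told apart.

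**Figure D5:**
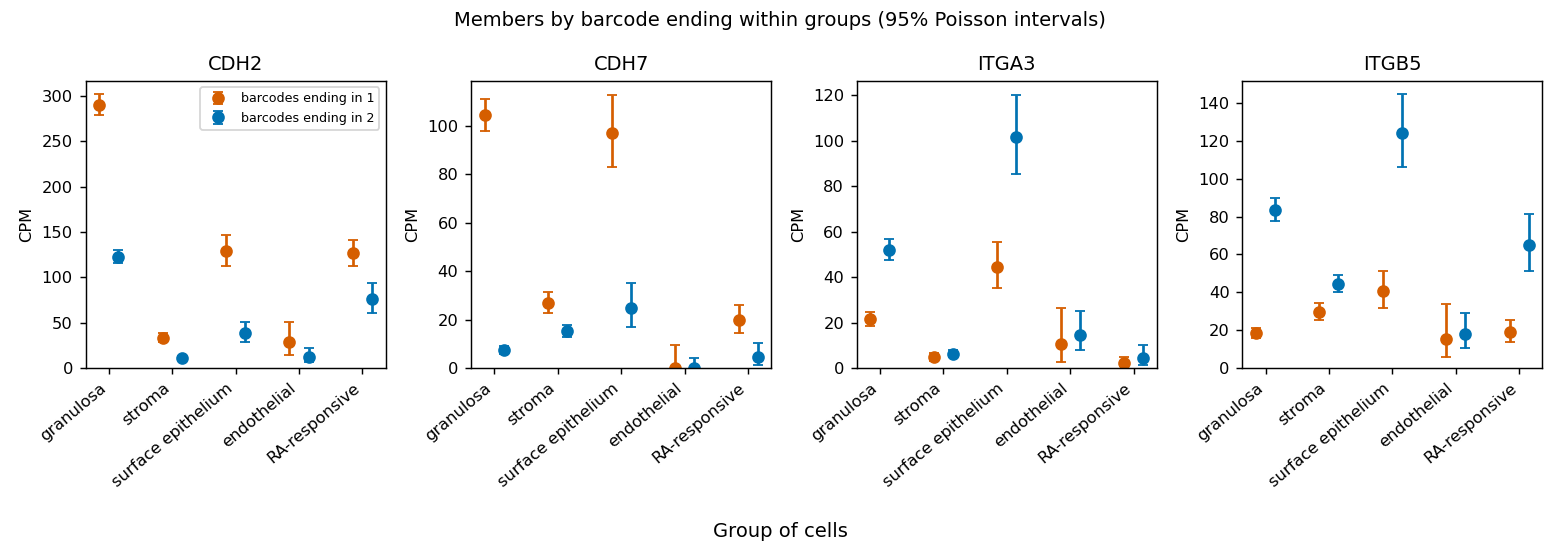
CPM (vertical axis, from 0) of CDH2, CDH7, ITGA3 and ITGB5 in 5 groups, with barcodes ending in 1 and in 2 as separate points and 95% Poisson intervals. In granulosa-like cells CDH7 is at 104 and 7.21 CPM and ITGB5 at 18.3 and 83.5 CPM.

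The granulosa-like clusters divided along the same lines. The cluster led by SOST, with 1815 of its 1847 cells of ending 1, had 106 CPM of CDH7, 304 of CDH2 and 18.5 of ITGB5. The cluster led by LYPD1, with 1281 of 1285 cells of ending 2, had 9.11 of CDH7, 120.2 of CDH2, 67.3 of ITGB5 and 562 of ITGA6. The cluster led by PLXNC1, with 938 of 940 cells of ending 2, had 1.13 of CDH7, 131 of CDH2, 144 of ITGB5 and 313 of ITGA6. CDH3 lay between 139 and 192 CPM in all 3. The cluster led by TRANK1, shallow with a median of 673 UMIs, had 72.1 CPM of CDH7 and 76.1 of CDH3.

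The 21 members under the limit of 20 CPM from 10 UMIs had 0 to 508 UMIs in retained cells. CDH6, with 21.3 CPM in pericyte-like cells from 9 UMIs, lay just outside the limit, and CDH19, with 23.7 CPM from 10 UMIs, just inside it. CDH24 had the most UMIs of them, with 15.1 CPM in stroma-like cells and 12.7 in ovarian surface epithelium-like cells. CDH22 had 0 UMIs in retained cells. At this depth such genes are not shown to be absent.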

How the data were processed

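RNA of single cells of fetal ovaries was measured in 2 libraries, 1 per stage. The deposited table gives unnormalised UMI counts of each gene in each cell. The authors produced them with Cell Ranger 3.0.2, mapping to Macaca_fascicularis_5.0, and Seurat. Cells with 200 to 3000 genes were retained, as the Methods of the study give it, which left more cells than the study states. Of the 42 members, 41 matched a symbol of the RefSeq table.

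Clustering used Seurat 5.3.0 under R 4.3.3, with 2000 variable genes without the members, 18 principal components, 20 neighbours and resolution 0.6. A name needs 3 markers, each seen in 5% of cells and 1.5 times above the remaining cells after adding 10 CPM, and is withheld where another class has more. Germ cells were clustered again into 11 sub-clusters. Scrublet in scanpy 1.11.5 called 2 and 1 cells, too few to have worked, so no doublet was removed. Levels are summed UMIs as CPM. Shares have exact 95% binomial intervals. Where no UMI was seen, 3 counts were taken as the limit. With 1 pooled sample no test was made. The ratio and intervals were tested on simulated counts. These were drawn from the Poisson model that the intervals assume, so spread between cells or libraries was not covered.

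Members reaching 20 CPM from 10 UMIs in a named group are described, and of the lists up to 4 genes each with the largest ratio among those reaching 50 CPM. The members and lists were chosen with earlier results of these data known.

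Alternatives were no upper gene limit, 10% mitochondrial UMIs, resolutions 0.4 and 1.0, 30 components, members among the variable genes, reciprocal PCA, the top 8% of Scrublet scores removed, mean single-cell CPM, each ending alone, 1 or 10 CPM added, no filter and thinning to 1000 UMIs. Scripts used pandas 2.3.3, scipy 1.17.1, numpy 2.4.6 and matplotlib 3.10.9 in Python 3.11.15.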

Additional observations from a re-analysis of the deposited data

Results flagged for a closer look

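CDH7 differed in opposite directions between stroma-like and granulosa-like cells in the libraries. Its log2 ratio of stroma-like over granulosa-like cells was -1.7838 in the barcodes ending in 1, with 26.8 against 104 CPM, and 0.7255 in those ending in 2, with 15.2 against 7.21 CPM. Each side is 1 barcode ending, taken as 1 library, and the difference was not tested.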

How the results depend on the processing

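The counts of members past 2-fold stayed within 1.5 times the reported count in 80 of 97 recomputed values. For ovarian surface epithelium-like over granulosa-like cells (5) the count was 3 with a limit of 10% mitochondrial UMIs, and for endothelial-like over stroma-like cells (8) it was 13 with 1 CPM added. For RA-responsive-like over mitotic-like cells (3) it was 5 with a limit of 10% mitochondrial UMIs, at resolution 1.0, with the mean of single-cell CPM, with 1 CPM added and with no filter, and 6 with 30 principal components. For meiotic-like over RA-responsive-like cells (1) it was 2 without the upper gene limit, with 30 principal components, in ending 1, with 1 CPM added and with no filter, and 4 in ending 2. For oogenesis-like over meiotic-like cells (5) it was 8 with the mean of single-cell CPM, in ending 2 and with 1 CPM added. The counts for granulosa-like over germ cell-like and stroma-like over granulosa-like cells stayed within that range in each alternative. Of the recomputed log2 ratios of called members, 564 stayed past 2-fold, 32 fell under it and 3 turned: CDH7 in stroma-like over granulosa-like cells in ending 2 (0.73), and, in oogenesis-like over meiotic-like cells, ITGA4 in ending 1 (-0.23) and ITGA6 with 30 principal components (-0.34). With 30 components CDH17 had a log2 ratio of 0 there, and the oogenesis-like cells were then a different set of 147 cells. A cluster of 926 cells led by ENSMFAG00000037043 and ASTL, with ZAR1 among its leading genes, then had no name. A sub-cluster of 370 germ cell-like cells, also with ZAR1 among its leading genes, was named RA-responsive-like. ITGA6 in oogenesis-like over meiotic-like cells fell under 2-fold in 7 of 14 alternatives, as CDH2 did in granulosa-like over germ cell-like cells. The cause was not tested. The same group stayed highest for 15 to 21 of the 21 described members. Of the recomputed levels of members, 169 were counted as the same and 61 as moved. Of the recomputed shares of cells, 1 was counted as the same and 20 as moved. Ending 2 has no mitotic-like cells and gave no value for that step. No paired analysis was possible because the results come from no test: no column maps a cell to a sample. Group differences paired over the barcode endings were not tested.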
